A study of Mus musculus with 14 samples.

Results

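The genes described here are 10 genes that mark cumulus and granulosa cells of the ovary: Inha, Inhba, Inhbb, Amhr2, Foxl2, Cyp19a1, Fshr, Has2, Ptx3 and Tnfaip6. They are a list of named genes, and each had 1 entry (1 RefSeq transcript) in the deposited files, so all 10 were found among 20238 gene symbols. The files hold RNA-seq of 14 single mouse embryos made by somatic cell nuclear transfer (SCNT), in which the nucleus of a body cell is placed into an oocyte whose own chromosomes were removed. The sample labels give the strain as B6D2F1 and do not name the nucleus donor; the methods of the study describe cumulus cells of B6D2F1 females aged 8 to 10 weeks as the donors. The donor nuclei therefore came, by those methods, from the cell type that these genes mark, and the question is how much of their RNA was measured at the two-cell stage. Which of the genes were on in the donor cells when they were collected was not measured.

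The 14 embryos fell into 6 treatments. There were 3 control embryos, 1 embryo in VC(0-8h), 2 in VC(8-15h), 3 in TSA(0-8h), 2 in TSA(0-8h)+VC(0-8h) and 3 in TSA(0-8h)+VC(8-15h). TSA is trichostatin A, an inhibitor of histone deacetylases, given at 50 nM from 0 to 8 h after the start of activation, and VC is vitamin C, given at 10 µg/ml in the hours named. All embryos, controls included, were activated in strontium with cytochalasin B, were cultured in medium with deionized bovine serum albumin, and were collected at 28 h. The labels do not tie embryos to the study's separate nuclear transfer experiments, so p-values measure only the spread between single embryos. No library of donor cells and none of fertilized embryos was analysed here, so RNA carried in with the donor cell, RNA made in the embryo and RNA left from the oocyte cannot be told apart.

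Cumulus cells are the granulosa cells that surround the oocyte and leave the follicle with it. Inhibins and activins are secreted dimers built from an alpha subunit (Inha) and beta subunits (Inhba, Inhbb), and Amhr2 is the type II receptor for anti-Müllerian hormone. Foxl2 is a transcription factor that maintains granulosa identity, Fshr is the receptor for follicle-stimulating hormone and Cyp19a1 is aromatase, which makes oestrogen. After the ovulatory surge, cumulus cells switch on Has2, which synthesizes hyaluronan, and Ptx3 and Tnfaip6, whose proteins crosslink it into the expanded matrix.

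Most of these genes were not detected or were near the limit of detection. Levels are in RPKM (reads per kilobase of transcript and per 1e+06 reads counted), and each library held 3021540 to 13589389 reads on annotated transcripts. Each value is a whole number of reads scaled by the library total and the transcript length, so the reads behind it could be recovered. Of the 140 values (10 genes in 14 embryos), 111 were 0, 20 lay above 0 and under 1 RPKM, and 9 were at 1 RPKM or more. Of those 9 values, 7 belonged to Amhr2. The 10 genes had 7100 reads in all of 109920129, and 6469 of them (91.1%) were from Amhr2. Outside Amhr2 and the highest embryo of Inhbb and of Has2, 31 reads were left. Each library pools both blastomeres, so fewer cells with a transcript and less transcript per cell cannot be told apart.

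**Figure D1:**
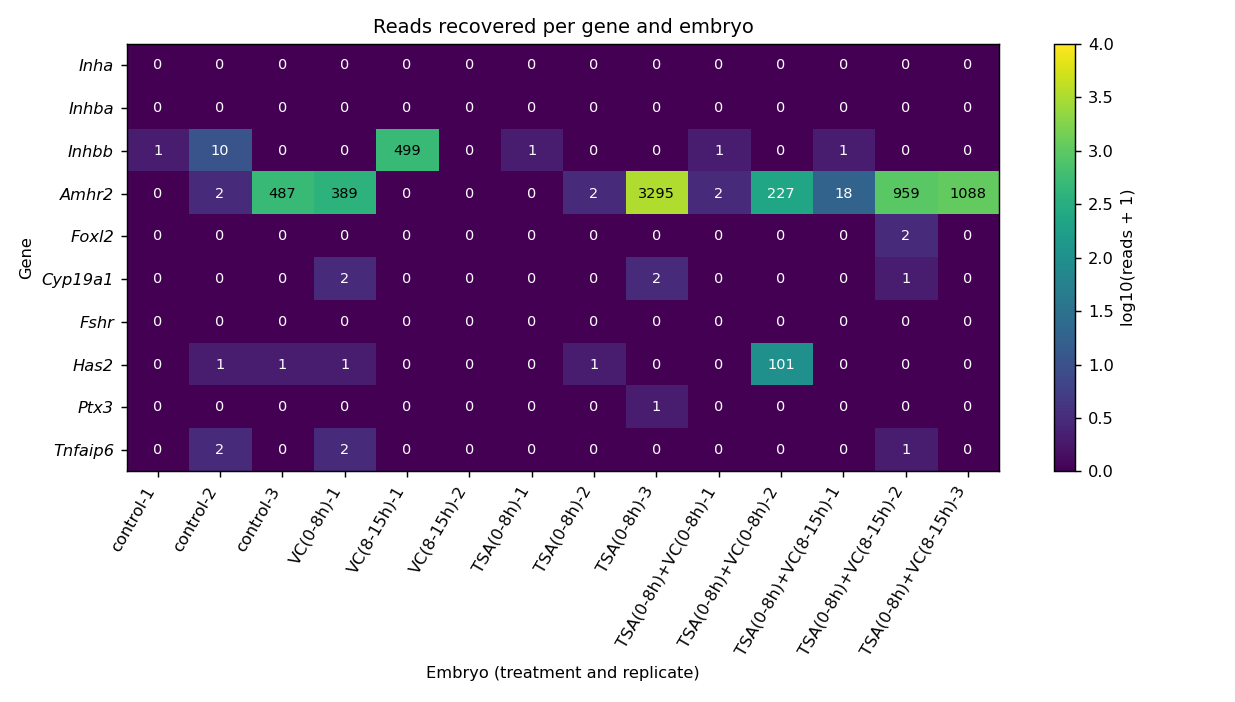
Reads recovered for each of the 10 genes (rows) in each of the 14 embryos (columns, by treatment and replicate), with the count printed in each cell and its colour on a scale of log10(reads + 1). Amhr2 had 18 to 3295 reads in 7 embryos; Inhbb had 499 reads in 1 embryo and Has2 101 reads in 1 embryo, and every other count was 10 or less.

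Of the inhibin and activin subunits, Inha and Inhba were at 0 in every embryo. Inha lies at mm9 chr1:75503652-75506941 on the plus strand and Inhba at chr13:16103684-16119044 on the plus strand. A count of 0 in 14 libraries allows 3 reads in all, which is 0.0185 RPKM for Inha and 0.0139 RPKM for Inhba over the 14 libraries together. In a single library the limit was between 0.150 and 0.673 RPKM for Inha. Reads after 2 steps of PCR are not independent molecules, so these limits cover counting error only. Of all 25650 entries, 31.6% had no value above 0 in any embryo.

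Inhbb, the beta B subunit (mm9 chr1:121312042-121318825, minus strand), was high in 1 embryo. Its level was 11.9 RPKM (499 reads) in VC(8-15h) replicate 1 and 0 in VC(8-15h) replicate 2. In the control embryos it had 1, 10 and 0 reads, and in 3 TSA-treated embryos it had 1 read each. Every other embryo was at 0.
Such single-embryo signals were common: 11.4% of all entries reached 1 RPKM in exactly 1 of the 14 embryos, and 5.67% reached 10 RPKM in 1 embryo while staying under 1 RPKM in the other 13. In the same VC(8-15h) replicate 1, Fst (follistatin, which binds activins) was at 13.8 RPKM and was under 0.15 RPKM in every other embryo, and Acvr1, a type I receptor of the family, was at 17.8 RPKM, although its highest level was 148 RPKM in TSA(0-8h) replicate 1. Those 2 genes were picked out after their values were seen.

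Amhr2 was the one gene of the 10 that recurred. It lies at mm9 chr15:102275798-102285061 on the plus strand with 11 exons, and no annotated gene overlaps it. Its nearest neighbours are Gm17403, a lincRNA on the minus strand 895 bases downstream, Prr13, a protein-coding gene 4397 bases downstream, and Sp1, a transcription factor gene 8962 bases upstream.

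The 250 bases before its RefSeq start are printed beside those of Inhbb, because these 2 genes had the highest levels of the 10. RefSeq promoters were matched for 9 of the 10 genes (11 starts, of which 3 were of Cyp19a1), on build GRCm38.p6; Has2 had no entry. The Amhr2 stretch is chr15:102445117-102445366 on the plus strand and the Inhbb stretch is chr1:119422249-119422498 on the minus strand. Capitals mark AGGTCA, the half-site of many nuclear receptors, searched on both strands.
Amhr2: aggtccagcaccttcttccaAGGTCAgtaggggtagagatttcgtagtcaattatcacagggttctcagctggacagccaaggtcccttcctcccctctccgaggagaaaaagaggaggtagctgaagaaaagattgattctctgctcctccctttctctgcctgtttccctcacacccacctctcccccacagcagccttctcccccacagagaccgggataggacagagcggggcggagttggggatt
Inhbb: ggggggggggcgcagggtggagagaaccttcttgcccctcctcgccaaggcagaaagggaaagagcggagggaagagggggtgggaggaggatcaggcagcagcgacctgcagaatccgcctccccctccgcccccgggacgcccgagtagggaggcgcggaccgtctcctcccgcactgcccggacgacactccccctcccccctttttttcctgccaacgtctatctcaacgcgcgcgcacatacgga
The Amhr2 stretch held AGGTCA 1 time, within the longer CAAGGTCA, a sequence bound by Nr5a1 and Nr5a2 in general. On either strand AGGTCA was found in 14.0% and CAAGGTCA in 1.33% of 32851 promoters of the same length, and in 4 and 1 of the 9 genes matched. The Inhbb stretch held neither and had 21 CpG, against 5 in the Amhr2 stretch and a median of 6 over all promoters. A match is only a description of these letters. Of the 2 factors, Nr5a1 was at or under 0.0494 RPKM in every embryo, and Nr5a2, which early embryos make, ranged from 1.09 to 92.9 RPKM with a median of 42.6 RPKM. Nr5a2 was at 64.9 and 92.0 RPKM in the VC(8-15h) embryos, where Amhr2 was at 0. In TSA(0-8h)+VC(8-15h) it was at 6.05 RPKM in replicate 2 (Amhr2 63.4 RPKM) and 92.9 RPKM in replicate 3 (Amhr2 45.5 RPKM). Any link between Nr5a2 and Amhr2 was not tested.

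The level of Amhr2 in each embryo was as follows. In the control embryos it was 0, 0.150 and 18.4 RPKM (0, 2 and 487 reads). In the VC(0-8h) embryo it was 46.9 RPKM (389 reads), and in both VC(8-15h) embryos it was 0. Control embryos thus ran from no read to 487 reads, and the VC(0-8h) embryo was high while neither VC(8-15h) embryo had a read.
In the TSA(0-8h) embryos it was 0, 0.131 and 144 RPKM (0, 2 and 3295 reads). TSA(0-8h)+VC(0-8h) gave 0.315 and 8.90 RPKM (2 and 227 reads). TSA(0-8h)+VC(8-15h) gave 2.13, 63.4 and 45.5 RPKM (18, 959 and 1088 reads). TSA(0-8h)+VC(8-15h) was the one treatment with several embryos in which each was at 1 RPKM or more, but its lowest embryo lay below the highest control embryo, so the groups overlapped.

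Where Amhr2 was at 1 RPKM or more, its rank among the entries detected at that level varied widely. It was higher than 86.5% of the entries at 1 RPKM or more in TSA(0-8h) replicate 3, and than 72.7% in replicate 2 and 64.4% in replicate 3 of TSA(0-8h)+VC(8-15h). It was higher than 67.8% in the VC(0-8h) embryo and 42.1% in control replicate 3. In TSA(0-8h)+VC(0-8h) replicate 2 and TSA(0-8h)+VC(8-15h) replicate 1 it was higher than 27.0% and 8.42%. An on-and-off pattern of this kind was usual in these libraries: 46.7% of all entries were at 1 RPKM or more in some but not all embryos, 3.31% in all 14, and 18.0% in at least 7. Over the 14 embryos the SD of log2(RPKM + 1) was 2.74 for Amhr2, against a median of 2.43 among 1672 entries of like mean level, 78.4% of which had a smaller SD.

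**Figure D2:**
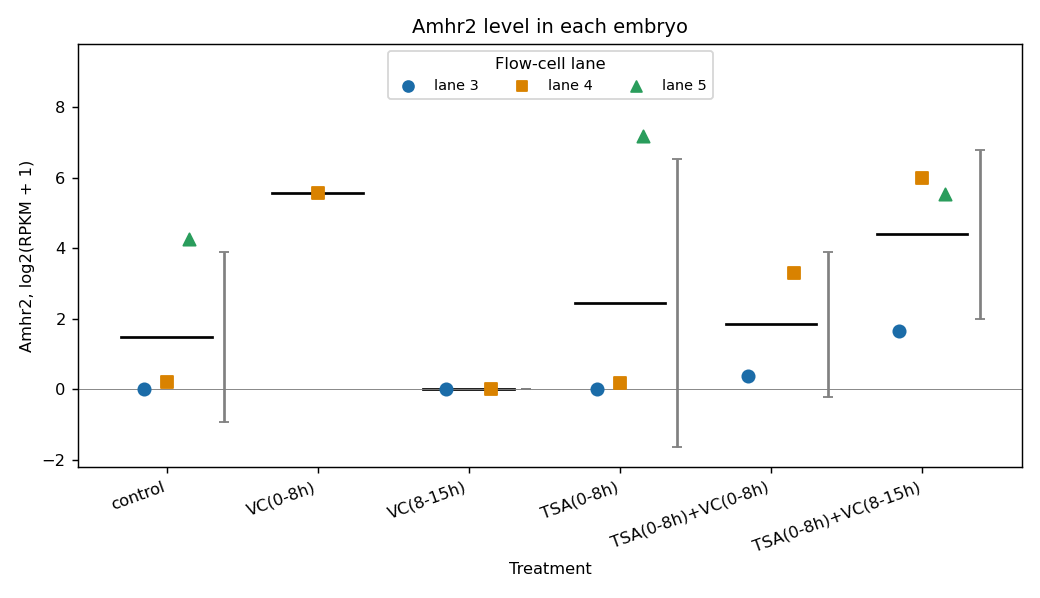
Amhr2 in log2(RPKM + 1) (vertical axis) for each embryo of the 6 treatments (horizontal axis); the black line is the mean, the grey bar 1 SD of the treatments with more than 1 embryo, and colour and shape give the flow-cell lane. The 3 embryos of lane 5 are at 18.4 to 144 RPKM, and the points of every treatment with 3 embryos span more than 4 units.

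The mean level was 6.19 ± 10.6 RPKM in control (SD, n = 3), 48.0 ± 83.1 RPKM in TSA(0-8h) (n = 3), 37.0 ± 31.5 RPKM in TSA(0-8h)+VC(8-15h) (n = 3) and 4.61 ± 6.07 RPKM in TSA(0-8h)+VC(0-8h) (n = 2). The VC(0-8h) embryo was at 46.9 RPKM and both VC(8-15h) embryos were at 0. Of neighbouring treatments in the order of these means, only control and TSA(0-8h)+VC(8-15h) were compared by a test, given below. The single VC(0-8h) embryo gives no spread. The embryos were sequenced in 3 flow-cell lanes, which the file headers name. Amhr2 was at 1 RPKM or more in 1 of 5 embryos of lane 3, in 3 of 6 of lane 4 and in 3 of 3 of lane 5. Its median was 0 RPKM in lane 3, 4.52 RPKM in lane 4 and 45.5 RPKM in lane 5. Lane 5 held the replicate 3 libraries, with 11753807 to 13589389 reads. Lanes 3 and 4 held replicates 1 and 2, except that the VC(0-8h) embryo, a replicate 1, was in lane 4. In comparisons between single treatments the replicate number was therefore also the lane. The part of lane or depth in the Amhr2 level was not tested. Each lane held 1 control and 1 TSA(0-8h)+VC(8-15h) embryo, and the latter was higher in all 3 lanes: 2.13 against 0 RPKM in lane 3, 63.4 against 0.150 RPKM in lane 4 and 45.5 against 18.4 RPKM in lane 5. Against the TSA(0-8h) embryo of the same lane it was higher in lanes 3 and 4 and lower in lane 5 (45.5 against 144 RPKM). The share of all entries that were higher than control in all 3 lanes was not counted.

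Differences between treatments were tested with limma on log2(RPKM + 1) over all entries with at least 1 RPKM in every embryo of either group, with Benjamini-Hochberg adjustment. Amhr2 entered the comparisons with TSA(0-8h)+VC(8-15h) only through that group, so its being higher there was in part set by the filter. Against control the Amhr2 difference was 2.90 on the log2(RPKM + 1) scale (SE 1.73, 95% interval -0.74 to 6.55, adjusted p = 0.400). The median of all 3416 entries tested was 0.78 in that comparison. Against TSA(0-8h) the Amhr2 difference was 1.95 (SE 2.11, interval -2.54 to 6.43, adjusted p = 0.689), with a median of 1.18 over 3243 entries. Both intervals included 0. With a replicate block, which in these comparisons was also the lane, the differences were the same (adjusted p = 0.374 and 0.660, limma). Both comparisons share the TSA(0-8h)+VC(8-15h) embryos.

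Over all 14 embryos, in 1 model with both factors and a filter of 1 RPKM in any 3 embryos, Amhr2 was compared between 8 embryos with and 6 without each agent. With TSA it was at 1 RPKM or more in 5 of 8 embryos (median 5.51 RPKM), and without TSA in 2 of 6 (median 0.0748 RPKM). The Amhr2 difference with TSA was 1.27 (SE 1.45, interval -1.62 to 4.16, adjusted p = 0.984). With VC it was also at 1 RPKM or more in 5 of 8 embryos (median 5.51 RPKM), and without VC in 2 of 6 (median 0.141 RPKM). The Amhr2 difference with VC was 0.68 (SE 1.45, interval -2.21 to 3.56, adjusted p = 0.931), and it was -0.018 without the single VC(0-8h) embryo. Amhr2 was thus not called for either agent, and the sign for VC rested on 1 embryo. With lane as a block, chosen after the data were seen, the Amhr2 difference was 0.96 for TSA (adjusted p = 0.984, limma) and 1.53 for VC (adjusted p = 0.758). A test of whether the effect of VC(8-15h) on Amhr2 differed with and without TSA, chosen after the data were seen, gave an interaction of 3.44 (SE 3.31, adjusted p = 0.946) over 11 embryos.

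**Figure D3:**
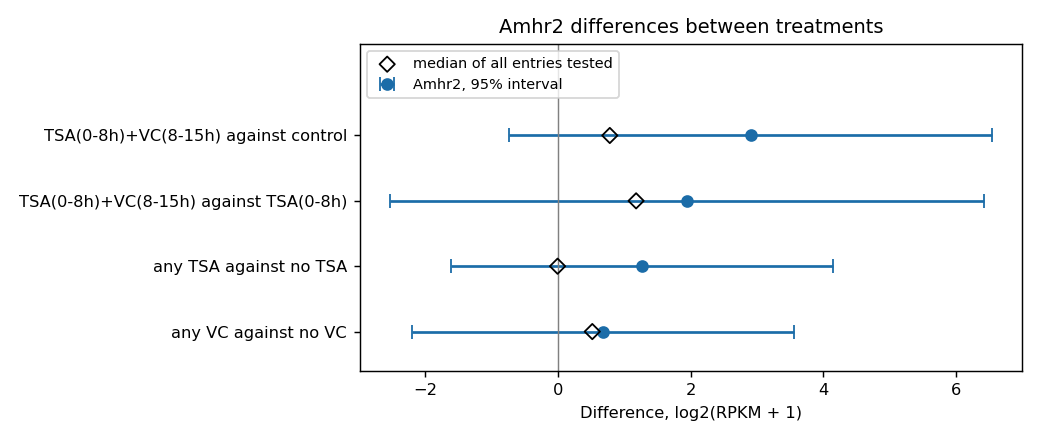
Amhr2 differences in log2(RPKM + 1) (horizontal axis) in the 4 comparisons in which it was tested (vertical axis), as filled points with 95% intervals from limma, and the median of all entries tested as open diamonds. All 4 intervals include 0, and all 4 include the median of all entries.

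Across the 7 comparisons none of the 10 genes was called higher or lower. The percentages of all entries called were 0.0293% for TSA(0-8h)+VC(8-15h) against control, 0.119% for TSA(0-8h) against control, 0.0% for TSA(0-8h)+VC(8-15h) against TSA(0-8h), 0.0% for VC(8-15h) against control, 4.76% for TSA(0-8h)+VC(0-8h) against TSA(0-8h), and 0.0242% each for any TSA and for any VC. Calls were thus rare for all entries in 6 of the 7 comparisons, and a gene not called may still have changed. With every embryo kept, Amhr2 was the single gene of the 10 that passed the filter in any comparison, and it was tested 4 times, with 0 at an unadjusted p under 0.05 by limma. With limma-voom on the recovered reads, 2 of 4 were under 0.05 unadjusted and 0 after adjustment. In the order above, limma-voom called 5.56%, 4.87%, 9.65%, 4.2% and 7.22% of all entries between treatments and 0.0121% each for any TSA and any VC. With VC(8-15h) replicate 2 left out, Inhbb was called in VC(8-15h) against control, where 21.1% of all entries were called, and with TSA(0-8h)+VC(0-8h) replicate 1 left out, Has2 was called against TSA(0-8h), where 28.8% were. In both fits the gene passed the filter only because the 1 treated embryo left was the one in which it was high.

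Exact two-sided permutation tests over embryos were run for every member with a read, 42 in all. The smallest p for Amhr2 was 0.200, for TSA(0-8h)+VC(8-15h) against control by an exact permutation test. With 3 against 3 or 2 against 3 embryos no exact p can go below 0.1. Over 8 against 6 embryos the exact permutation p of Amhr2 was 0.368 for TSA and 0.586 for VC. The smallest exact permutation p of any other member over 8 against 6 was 0.283, for Inhbb with and without TSA. None of the 42 was under 0.05, and every p adjusted over them was 1. The tests between single treatments could not go under 0.05, nor could any test of a gene with reads in 1 embryo, so these draw no conclusion.

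The identity and hormone-response genes Foxl2, Fshr and Cyp19a1 had almost no reads. Fshr (mm9 chr17:89384292-89600015, minus strand) was at 0 in all embryos, which allows 0.0116 RPKM over the 14 libraries. Foxl2 (chr9:98856026-98858545, plus strand, a single exon) had 2 reads in TSA(0-8h)+VC(8-15h) replicate 2 and none elsewhere. Cyp19a1 (chr9:54013744-54115917, minus strand) had 5 reads in 3 embryos, with 0.198 RPKM as its highest value, in the VC(0-8h) embryo. None of the 3 genes reached 3 reads in any embryo.

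The genes of the expanded cumulus matrix were also close to 0. Has2 (mm9 chr15:56497182-56526094, minus strand) was at 1.82 RPKM (101 reads) in TSA(0-8h)+VC(0-8h) replicate 2, had 1 read in 4 embryos and was at 0 in the other 9, including TSA(0-8h)+VC(0-8h) replicate 1. It overlaps Has2as on the plus strand, and whether the counting used strand is not given in the sources used here, so reads of the 2 genes cannot be told apart. Tnfaip6 (chr2:51893529-51912206, plus strand) had 5 reads in 3 embryos, at most 0.293 RPKM. Ptx3 (chr3:66023809-66029728, plus strand, within Veph1 on the other strand) had 1 read, in TSA(0-8h) replicate 3. Has2 in 1 embryo was the one matrix gene with more than 2 reads.

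The few reads of Inhbb and Has2 outside their highest embryo were counted by lane. Inhbb had its 499 reads in lane 3, where all 4 other embryos had 1 read each, while 1 of 9 embryos of the other lanes had reads, control replicate 2 of lane 4 with 10. Has2 had its 101 reads in lane 4, where 3 of 5 other embryos had 1 read, against 1 of 8 in the other lanes. The largest of these low counts, the 10 Inhbb reads, was thus outside the lane of the highest embryo. Over the whole table, among 854 entries with 1000 to 9999 reads in 1 embryo and no more than 10% of that in any other, 83.2% of the other embryos in the same lane had a read, against 24.5% in other lanes; among 1455 entries with 100 to 999 reads these shares were 46.3% and 19.2%. The part of the lane in the low counts of Inhbb and Has2 was not tested.

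**Figure D4:**
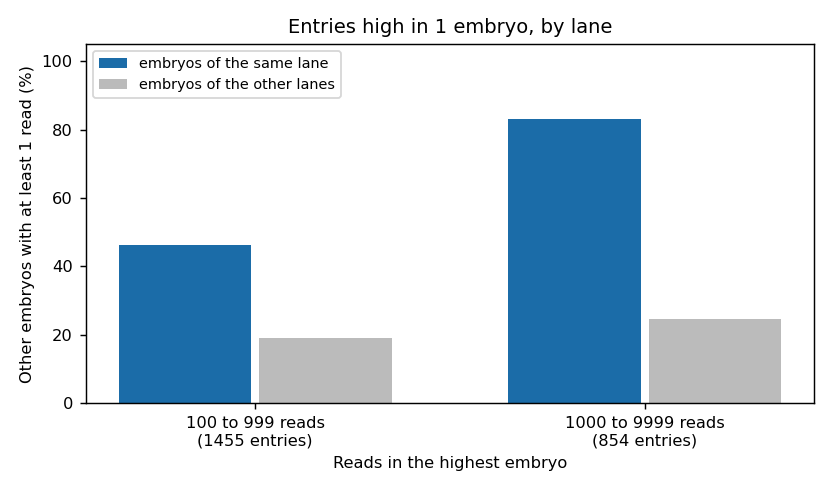
Percentage of the other embryos with at least 1 read (vertical axis) for entries whose reads lay almost all in 1 embryo, by the reads in that embryo (horizontal axis), for embryos of the same lane (blue) and of other lanes (grey). The share is 83.2% against 24.5% for 854 entries and 46.3% against 19.2% for 1455 entries.

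By embryo, between 0 and 4 of the 10 genes were above 0, with a mean of 2.07 ± 1.27 (SD, n = 14), and between 0 and 2 were at 1 RPKM or more (mean 0.643 ± 0.633). VC(8-15h) replicate 2 had no read of any of the 10. TSA(0-8h)+VC(0-8h) replicate 2 was the one embryo with 2 genes at 1 RPKM or more, Amhr2 and Has2. The summed level was 24.7 ± 40.4 RPKM over the 14 embryos and ranged from 0 to 144 RPKM. Without Amhr2 the sum was at most 0.559 RPKM in 12 embryos, and 1.82 and 11.9 RPKM in the embryos with Has2 and Inhbb.

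The summed level of 8 oocyte genes was between 97.4 and 928 RPKM. Bmp15, a growth factor of the oocyte, was at 91.3 RPKM or more in every embryo, while Gdf9, its partner, was at 1 RPKM or more in 11 of 14 and Ooep, of the maternal subcortical complex, in 3 of 14. The summed level of the 7 matched of 8 two-cell genes was between 5.86 and 492 RPKM. Control replicate 2 was the lowest of the 14 in both sums; without it, the Amhr2 difference of TSA(0-8h)+VC(8-15h) against control was 2.26 (adjusted p = 0.647, limma). Of the 10 cumulus and granulosa genes, 3 were at 0 throughout and 3 reached 1 RPKM somewhere. Of 6 theca and stroma genes 1 reached 1 RPKM, Cyp17a1 at 240.5 RPKM in control replicate 2, and Col1a1 stayed at or under 0.124 RPKM. Of 4 endothelial genes 2 reached 1 RPKM, led by Pecam1 at 107 RPKM in TSA(0-8h) replicate 3, and all 3 matched of 4 blood genes were at 0. The library highest in Amhr2 was thus also highest in Pecam1, and any link was not tested. Of 4 epithelial genes 2 reached 1 RPKM, Epcam and Cdh1, and Krt8 was at 0.

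**Figure D5:**
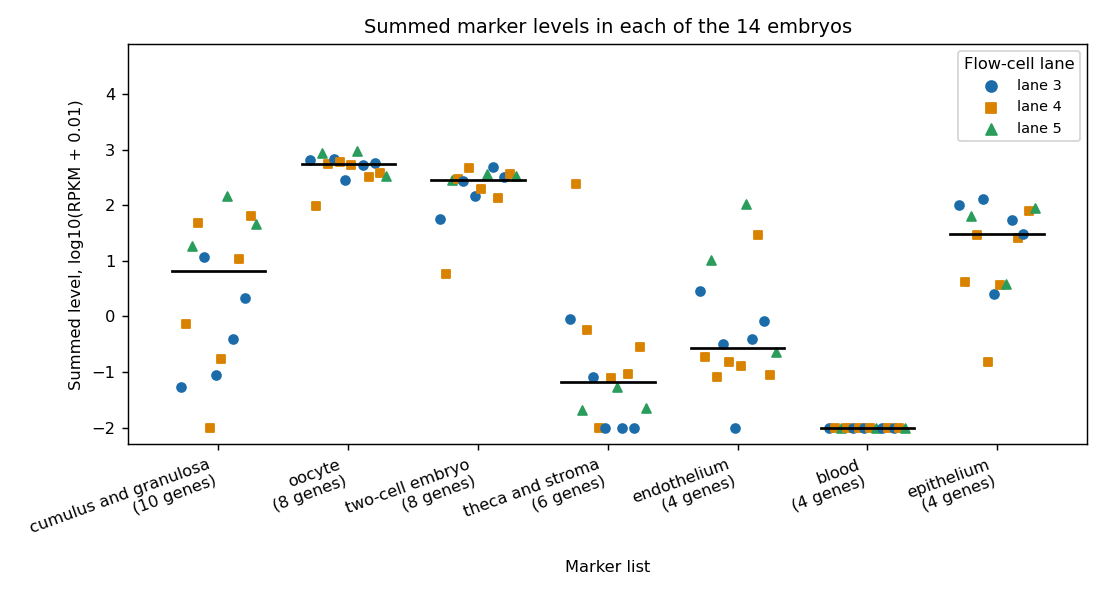
Summed RPKM of each marker list on a log10 scale after adding 0.01 (vertical axis) in each of the 14 embryos, by list (horizontal axis; 7 of 8 two-cell and 3 of 4 blood genes were matched), coloured by lane, with the median as a line. The oocyte list is at 97.4 RPKM or more in every embryo, while the cumulus and granulosa list runs from 0 to 144 RPKM.

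The other genes of the same pathways were taken from lists written with earlier results of these data known. Of 17 genes of activin, inhibin and AMH signalling, 14 reached 1 RPKM in some embryo and 5 in at least 7. The highest were Bmpr2, a type II receptor shared by BMP ligands, at 59.6 ± 40.2 RPKM (SD, n = 14), Smad3, a signal transducer, at 50.3 ± 40.9 RPKM, and Smad7, an inhibitor of the pathway, at 38.6 ± 40.5 RPKM. Amh, the ligand of Amhr2, was above 0 in 1 embryo, at 0.111 RPKM. Between 3 and 11 of the 17 were tested in each comparison, and limma called 0, with an unadjusted p under 0.05 in 2 of 45 tests. With limma-voom 1 of 45 was called, Smad2, a signal transducer of activins, in TSA(0-8h)+VC(8-15h) against TSA(0-8h) (difference 6.59, adjusted p = 0.00549), where 9.65% of all entries were called. Smad2 passed the filter only through the group where it was high. Its level over 2 entries was 53.1, 9.64 and 13.4 RPKM there, against 0.0756, 0.0292 and 2.07 RPKM in TSA(0-8h). The median difference of the list was above that of all entries in TSA(0-8h)+VC(8-15h) against control (1.34 beside 0.78) and VC(8-15h) against control (1.06 beside 0.42) and for any TSA (0.19 beside -0.007), and it was -0.37 beside -0.38 in TSA(0-8h) against control. It was below that of all entries in TSA(0-8h)+VC(8-15h) against TSA(0-8h) (0.55 beside 1.18), TSA(0-8h)+VC(0-8h) against TSA(0-8h) (0.57 beside 1.39) and for any VC (0.18 beside 0.52).

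Of 16 genes of cumulus expansion and the hyaluronan matrix, 5 reached 1 RPKM somewhere and 1 did so in at least 7 embryos. That gene was Hmmr, a hyaluronan receptor that also acts at the mitotic spindle, at 125 ± 83.2 RPKM. Vcan, a matrix proteoglycan, was at 69.0 RPKM in 1 embryo and under 1 RPKM in the other 13, and Egfr, the receptor of the expansion signals, reached 18.2 RPKM and was at 1 RPKM or more in 5 embryos. Ptgs2, the prostaglandin synthase of expanding cumulus, was at or under 0.0566 RPKM and Cd44, another hyaluronan receptor, at or under 0.0867 RPKM. At most 2 of the 16 were tested in a comparison, and both limma and limma-voom called 0, with an unadjusted p under 0.05 in 0 of 9 tests.

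Of 14 genes of steroidogenesis and gonadotropin response, 8 reached 1 RPKM somewhere and 7 did so in at least 7 embryos. The highest were Nr5a2 at 36.4 ± 33.5 RPKM, the prolactin receptor Prlr at 33.3 ± 42.9 RPKM and the oestrogen receptor Esr1 at 29.5 ± 40.6 RPKM. Cyp11a1, which starts steroid synthesis from cholesterol, was at or under 0.0572 RPKM, Hsd3b1 and the LH receptor Lhcgr were at 0, and Star, which carries cholesterol into mitochondria, was at 1.49 RPKM in VC(8-15h) replicate 1 and at or under 0.0759 RPKM elsewhere.

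Of 18 other granulosa and cumulus genes, 9 reached 1 RPKM somewhere and 5 were at 0 throughout. The highest were Gata4, a transcription factor of granulosa and of early embryonic lineages, at 44.5 ± 50.8 RPKM, Rgs2, a regulator of G-protein signalling, at 17.1 ± 32.3 RPKM and Gja1, a gap junction protein, at 8.36 ± 19.8 RPKM. Several genes usual in cumulus and granulosa cells were at or near 0: Vim, an intermediate filament gene, was at or under 0.128 RPKM, and Krt18, Timp1, Igfbp4 and Wt1 were at 0 in every embryo. Cdkn1b, a cell cycle inhibitor, was called higher in TSA(0-8h)+VC(0-8h) than in TSA(0-8h), at 4.59 and 35.0 RPKM against 0 in all 3 (difference 3.83, SE 0.898, adjusted p = 0.0482, limma). Cdkn1b passed the filter only through the group where it was high, and the call was lost without the filter, with the entries of a gene summed, with a replicate block (adjusted p = 0.163) and without any 1 of the TSA(0-8h) embryos. In that comparison 4.71% of all entries were called higher. Of 18 tests of the list, 5 had an unadjusted p under 0.05 with limma and 5 with limma-voom, which called Cdkn1b again and also Gata4, in TSA(0-8h)+VC(8-15h) against control (difference 7.28, adjusted p = 0.00838, against 0.110 with limma), where limma-voom called 5.56% of all entries. Gata4 too passed the filter only through the group where it was high, at 68.5, 165 and 75.6 RPKM against 0.217, 0.472 and 2.45 RPKM in control. The 6 genes of the oocyte list (Gdf9, Bmp15, Bmp6, Fgf8, Kit and Npm2) all reached 1 RPKM. They were led by Bmp15 at 310.0 ± 142 RPKM, Npm2 at 115 ± 205 RPKM and Bmp6 at 81.2 ± 140.1 RPKM. Of these, limma and limma-voom called 0, with an unadjusted p under 0.05 in 3 and 1 of 29 tests.

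The entries whose levels ran most like those of Amhr2 over the 14 embryos were found among 4615 other entries at 1 RPKM or more in at least 7 embryos. They were Arf6, a small GTPase (Spearman 0.876), Slc3a2, a subunit of amino acid transporters (0.847), and Fgf1, a growth factor (0.802). Their highest levels were 122, 443 and 57.1 RPKM. These are the top values of many, and the 14 points share lanes and depth, so they are given as a description.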

How the data were processed

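RNA of 14 single two-cell embryos was amplified (2 of 9 µl eluate, NuGEN Ovation Single Cell RNA-seq, PCR steps of 14 and 12 cycles) and sequenced as single reads of 50 bases. The authors filtered reads at a quality of 20, trimmed adapters, mapped with TopHat (TopHat2 in the submitters' processing notes) to mm9, counted reads on UCSC exons and deposited RPKM values, that is, counts scaled by the library's total and by the length of the transcript. Strandedness is not given in the sources used here. The authors' edgeR counts were not used here.

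Entries were given symbols from RefSeq (25246 of 25650 matched). Loci are from GENCODE on mm9. Reads were recovered from the RPKM steps as whole reads at a whole transcript length (14531 of 14532 entries with reads in 2 embryos or more), giving 3021540 to 13589389 reads per library. For Inha, Inhba and Fshr, at 0 throughout, annotated lengths set the limits; for Foxl2 and Ptx3, with reads in 1 embryo, the length nearest to the annotated one was used.

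Groups and replicate numbers came from the sample labels. Treatments were compared with limma 3.58.1 (R 4.3.3, eBayes with trend) on log2(RPKM + 1), a pseudocount that understates changes of low genes, with a filter of 1 RPKM in all embryos of either group (in 3 of 14 for the 2 comparisons over all embryos), Benjamini-Hochberg adjustment over all entries and a threshold of 0.05, and with exact permutation tests (scipy 1.17.1). Alternatives were a pseudocount of 0.1 RPKM, no filter, median-ratio scaling, summed entries, limma-voom on recovered reads, a replicate block, a lane block and leaving out each embryo. The fit was tested on simulated data with 200 changed entries, at the spread of TSA(0-8h)+VC(8-15h) against control. It called 0% of changes of 2, 16.5% of changes of 4 and 82.5% of changes of 8 on the log2 scale. The members and lists were chosen with earlier results of these data known. Named were all 10 members, the 3 highest genes of each list, any list gene past the threshold and the 3 entries most like a member at 1 RPKM or more in 7 embryos; genes beyond that rule (Fst, Acvr1, Amh, Nr5a1, Ptgs2, Cd44, Cyp11a1, Hsd3b1, Lhcgr, Star, Vim, Krt18, Timp1, Igfbp4, Wt1, and the named genes of the marker lists) were chosen after their values were seen. The tests of the steroidogenesis and gonadotropin response list are not reported here.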

Additional observations from a re-analysis of the deposited data

Results flagged for a closer look

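Inhbb and Has2 had an embryo far from the others of its kind on the log2(RPKM + 1) scale. The measure is the gap between the highest embryo and the next, as a share of the whole range, in groups of 6 or 8 embryos. For Inhbb it was 0.885 in the 6 embryos without TSA and 0.973 in the 8 embryos with VC, in both cases because of VC(8-15h) replicate 1 at 11.9 RPKM. In the 6 embryos without VC it was 0.746 for Inhbb, where control replicate 2 had 10 reads. For Has2 it was 0.971 in the 8 embryos with TSA and 0.948 in the 8 embryos with VC, because of TSA(0-8h)+VC(0-8h) replicate 2 at 1.82 RPKM. Amhr2 passed in none of its groups. The nominal chance rate of about 1 in 20 groups does not apply here, because Inhbb and Has2 were at or near 0 in most embryos. A single embryo with reads then gives a large gap by itself. The 12 groups looked at also share embryos, so the flags are not independent.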

How the results depend on the processing

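No member was called in the 7 comparisons as fitted or under any alternative setting, and leaving out 1 embryo gave between 0 and 1 called member in 2 comparisons and 0 in the other 5. Without VC(8-15h) replicate 2, Inhbb was called in VC(8-15h) against control (difference 3.53, adjusted p = 0.00202, limma), and without TSA(0-8h)+VC(0-8h) replicate 1, Has2 was called in TSA(0-8h)+VC(0-8h) against TSA(0-8h) (1.48, adjusted p = 0.000132); in each case 1 embryo was left, the one in which the gene was high and through which it passed the filter, and it was assumed to vary like the other group. In these fits 1370 of 6506 and 1956 of 6783 entries were called. The Amhr2 difference for any VC ranged from -0.018 (without VC(0-8h) replicate 1) to 1.79 (without TSA(0-8h) replicate 3). For TSA(0-8h)+VC(8-15h) against control the Amhr2 difference ranged from 2.30 to 5.63 over 6 settings (adjusted p 0.187 to 0.716) and from 2.10 to 4.30 over embryos left out, and against TSA(0-8h) from 1.21 to 4.79 and from 0.72 to 4.31. Without TSA(0-8h) replicate 3 the latter was 4.31 and without TSA(0-8h) replicate 1 it was 0.72. Counting any value above 0 RPKM gave 2.07 members per embryo in place of 0.643. The summed level was 1.10 RPKM without Amhr2 and 15.5 RPKM without TSA(0-8h) replicate 3.

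Over all entries tested, deviations from the group means were little correlated between embryos of the same replicate number (between -0.048 and 0.031). A replicate block left 0 members called in all 7 comparisons. Counts over all entries moved much more. Over the 6 settings they were 0 to 190 in place of 1 in TSA(0-8h)+VC(8-15h) against control, 0 to 123 in place of 3 in TSA(0-8h) against control, 0 to 313 in place of 0 in TSA(0-8h)+VC(8-15h) against TSA(0-8h), 0 to 133 in place of 0 in VC(8-15h) against control, and 0 to 365 in place of 184 in TSA(0-8h)+VC(0-8h) against TSA(0-8h), where the block gave 5. The replicate block also moved the count from 1 to 20 in TSA(0-8h)+VC(8-15h) against control and from 0 to 196 in TSA(0-8h)+VC(8-15h) against TSA(0-8h). It gave 4 in place of 3 in TSA(0-8h) against control and 2 in place of 0 in VC(8-15h) against control. Over 7 settings the counts were 0 to 2 in place of 2 for any TSA and 1 to 6 in place of 2 for any VC. Median-ratio scaling moved the median of all entries from 0.78 to -0.06 in TSA(0-8h)+VC(8-15h) against control. The lane block, chosen after seeing the data and fitted for any TSA and any VC, left 0 members called. The cause of these shifts was not tested. Depth limits single libraries to 0.113 to 0.510 RPKM for Amhr2 at 3 reads.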
